A study of Mus musculus with 10 samples.

Results

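The 10 Wnt ligand genes described here are Wnt2, Wnt2b, Wnt4, Wnt5a, Wnt5b, Wnt6, Wnt7b, Wnt9a, Wnt10b and Wnt11. They were taken from 19938 mouse genes that had at least 1 probe set annotated to a single gene symbol. Where a gene had more than 1 such probe set, the one with the highest mean over all arrays was used; among the 10 ligands this arose for Wnt4, with 2 probe sets. Their RNA was measured on 10 expression arrays in 5 independent preparations of mesenchymal stromal cells (MSC) from mouse bone marrow, called MSC I, MSC II, MSC III, MSC IV and MSC V, with 2 arrays each. All 5 came from female C57BL/6J mice aged 6 to 8 weeks and were cultured at passages 16 to 17 in the same medium, MesenCult for mouse cells with 20% of its mesenchymal supplement and 3 antibiotics. No preparation is labelled as treated or as a control, so each was compared with the other four, and MSC I was also compared directly with MSC V. Mesenchymal stromal cells are adherent, plastic-grown cells of the marrow stroma that can form bone, fat and cartilage cells.

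Wnt ligands are secreted, lipid-modified glycoproteins. The enzyme Porcn attaches the lipid, the carrier Wls takes the ligand to the cell surface, and Frizzled receptors bind it there. With the co-receptors Lrp5 and Lrp6 this stabilises β-catenin, which acts with Tcf and Lef factors on transcription, whereas with Ror2, Ryk and other receptors some ligands act through the planar polarity and calcium branches. In mice, Wnt10b is known for favouring bone-forming over fat-forming differentiation of marrow stromal cells, and Wnt5a is a prototype of the ligands that act without β-catenin.

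Levels are the authors' log2 values after RMA, a method that corrects background and normalizes the probes of all arrays together. The median of the whole table was 6.55 and the single arrays' medians lay between 6.45 and 6.63. A gene was tested if at least 2 arrays exceeded 6.55, which left 10971 genes. A difference was called where its adjusted p was under 0.05 and its size at least 1 on the log2 scale, that is 2-fold. Adjusted p is limma's moderated p with Benjamini-Hochberg adjustment over every gene tested. The labels do not say whether the 2 arrays of a preparation came from separate cultures, so a p-value here reflects only how far 2 arrays of a preparation lay apart, possibly for technical reasons. As these are bulk samples, fewer cells of a type and less RNA per cell cannot be told apart.

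Of 14 measured stromal markers, 8 exceeded the table's median on all 10 arrays: Pdgfra, Pdgfrb, Cd44, Prrx1, Cxcl12, Col1a1, Col1a2 and Dcn. The other 6 did so on some arrays only. Of the 14, all tested, 10 were called over the 5 preparations, against 29.1% of all tested genes. With every named gene tested 8 were called, against 14.6%. MSC I had 3 called higher and 2 lower than the other four (background 7.73% and 5.22% of tested genes). MSC II had 2 and 2 (2.45% and 2.69%), MSC III 0 and 1 (1.31% and 0.957%), and MSC V 0 and 0 (2.11% and 1.44%). MSC IV had 2 called higher (Eng and Nt5e) and 4 lower (Pdgfra, Vcam1, Cxcl12 and Dcn), against 3.29% and 7.7%. Eng had 9.69 and 9.50 in MSC IV and 5.57 to 5.85 in the other four, so it was tested only because of MSC IV. Nt5e had 10.75 and 11.66 in MSC IV and 5.77 to 8.27 in the other four. Vcam1 had 7.03 and 6.46 in MSC IV and 9.48 to 11.11 in the other four, and Cxcl12 had 9.51 and 9.25 in MSC IV and 11.98 to 12.93 in the other four. None of 6 endothelial and none of 6 epithelial markers reached the level of a tested gene. Among 9 blood and macrophage markers Cd68 and Cd14 did while Ptprc, the pan-leukocyte antigen, did not. Cd68 and Cd14 were both called over the 5 preparations, against 29.1% of tested genes (2 of 9 with every named gene tested, against 14.6%). Of these 2, 1 was called higher in MSC V than in the other four (background 2.11%). Both were called lower in MSC I than in MSC V (background 4.43%). The mean of the 9 markers lay at 5.78 to 5.83 in MSC V and at 5.32 to 5.54 in the other four. The preparations also differed in lineage markers. The mean of 7 adipocyte markers lay at 11.04 to 11.61 in MSC I and at 6.55 to 7.46 in the other four. The mean of 6 osteoblast markers lay at 10.71 to 11.09 in MSC IV and at 5.47 to 9.08 in the other four, with MSC I lowest at 5.47 and 7.10. The mean of 7 proliferation markers lay at 11.36 to 11.49 in MSC I, 9.32 to 10.10 in MSC IV and 9.82 to 11.54 in MSC II, III and V. Of these 7, 6 were called over the preparations, against 29.1% (1 with every named gene tested, against 14.6%). MSC I had 2 called higher (against 7.73%) and MSC IV 4 lower (against 7.7%).

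Of the 10 ligands, 4 passed the filter: Wnt4, Wnt5a, Wnt5b and Wnt10b. Wnt5a, Wnt10b and Wnt4 differed among the 5 preparations, against 29.1% of all tested genes. All 3 had their highest level in MSC IV. Wnt5a and Wnt10b had their lowest in MSC I. When every one of the 19938 named genes was tested, Wnt5a, Wnt10b and Wnt4 were again called, 3 of 10 ligands, against 14.6% of genes. There the adjusted p of Wnt4 was 0.0468, and its call was lost without either array of MSC I, MSC III or MSC V and without MSC IV replicate 2 (adjusted p = 0.0817 to 0.199). Since a gene that passes the filter through one preparation only had to differ, the 6 ligands that did not pass are described from that second fit.

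**Figure D1:**
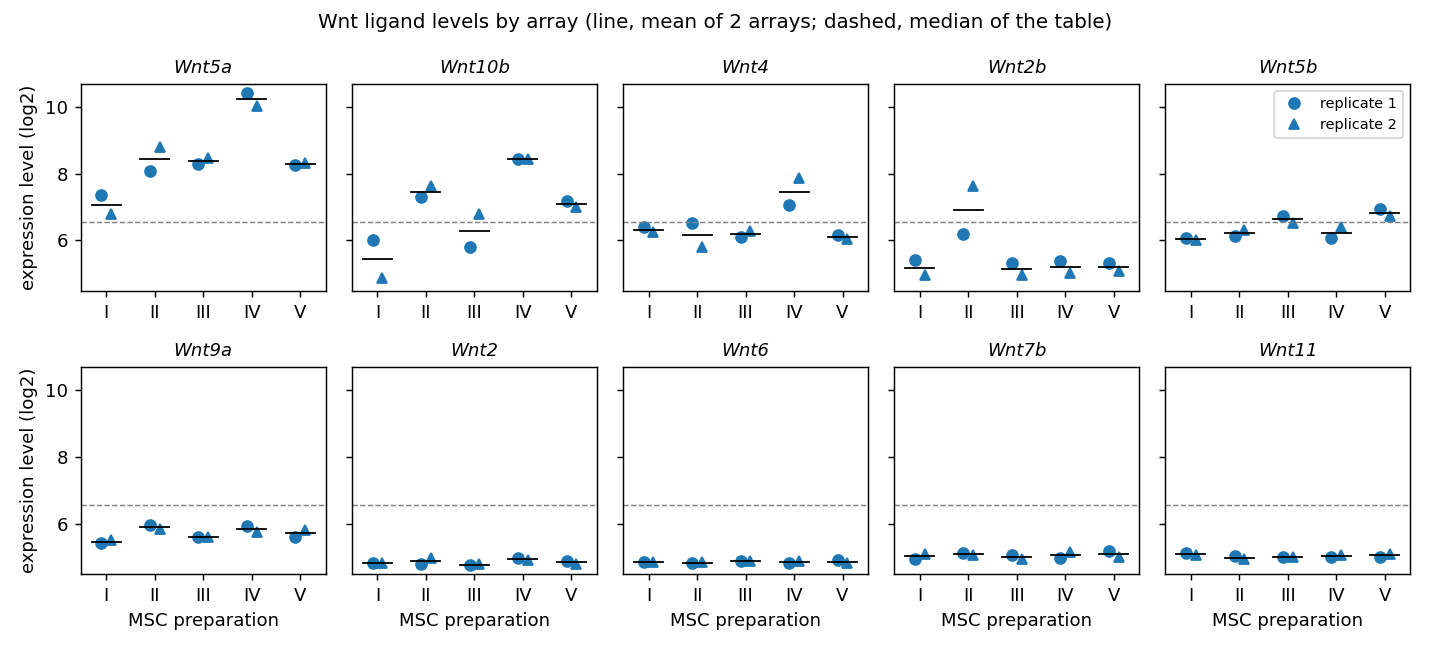
Level of each of the 10 Wnt ligands (log2 RMA value, y axis) in MSC I to MSC V (x axis). Each point is 1 array, each short line a preparation mean of 2 arrays, and the dashed line the table's median. Wnt5a, Wnt10b and Wnt4 stand highest in MSC IV, Wnt2b in MSC II, and Wnt2, Wnt6, Wnt7b and Wnt11 lie flat between 4.76 and 5.17.

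Wnt5a (chr14:28504543-28527448, GRCm38.p6) had 10.42 and 10.04 in MSC IV. It had 7.36 and 6.79 in MSC I, 8.08 and 8.79 in MSC II, 8.31 and 8.47 in MSC III, and 8.25 and 8.32 in MSC V. Both MSC IV arrays lay above all other arrays, both MSC I arrays lay below all other arrays, and MSC II, III and V overlapped in between. All 10 arrays exceeded the table's median, and no other ligand of the 10 did so. The preparation means spanned 3.15, or 8.90-fold (adjusted p = 0.000957 for the test over the 5 preparations). MSC IV exceeded the mean of the other four by 2.18 ± 0.22 (SE, 4.55-fold, adjusted p = 0.000485). MSC I lay below the mean of the other four, with a difference of −1.76 ± 0.22 (SE, 3.38-fold lower, adjusted p = 0.000753).

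The pairs of preparations gave Wnt5a an order of MSC IV, then MSC II, III and V together, then MSC I. Of 10 pairs 7 were called, each of them involving MSC I or MSC IV. The share of all tested genes called in the same direction was 6.77% for MSC I below MSC II, 4.85% for MSC I below MSC III, 8.04% for MSC I below MSC IV, 3.16% for MSC II below MSC IV, 2.47% for MSC III below MSC IV and 3.44% for MSC IV above MSC V. MSC I minus MSC IV was −3.15 ± 0.27 (adjusted p = 0.00012). The differences MSC II minus MSC III, MSC II minus MSC V and MSC III minus MSC V were 0.05, 0.15 and 0.10, each with an SE of 0.27 (adjusted p = 0.93, 0.734 and 0.854). MSC I minus MSC III was −1.31 ± 0.27 (adjusted p = 0.0123), and this call was lost when MSC I replicate 2, MSC III replicate 1 or MSC III replicate 2 was left out (adjusted p = 0.0585, 0.0559 and 0.064).

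Wnt10b (chr15:98770712-98778206, GRCm38.p6) had 8.45 and 8.44 in MSC IV. It had 6.01 and 4.88 in MSC I, 7.29 and 7.63 in MSC II, 5.81 and 6.79 in MSC III, and 7.18 and 7.01 in MSC V. The MSC IV arrays lay above all others. The arrays of MSC I and MSC III overlapped, and the SD of 2 arrays was 0.80 in MSC I and 0.69 in MSC III, against 0.0063 in MSC IV. Its means spanned 3.0, or 8.0-fold (adjusted p = 0.00534). MSC IV exceeded the other four by 1.87 ± 0.32 (SE, 3.66-fold, adjusted p = 0.00469), a call lost without MSC IV replicate 2 (1.88). With every named gene tested, that call was lost without either MSC IV array (1.87 and 1.88). MSC I minus the other four was −1.88 ± 0.32 (SE, 3.67-fold lower, adjusted p = 0.00326). The 4.88 of MSC I replicate 2 lay below the 10th percentile of all values in the table, 4.98. The span and the differences from MSC I thus rest in part on a value near the floor.

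Neighbours in the order of Wnt10b were not separated as cleanly as those of Wnt5a. The order of means was MSC IV, MSC II, MSC V, MSC III and MSC I, and 5 of 10 pairs were called. MSC I lay below MSC II by a difference of −2.01 ± 0.41 (adjusted p = 0.00762) and below MSC IV by −3.0 ± 0.41 (adjusted p = 0.00108). MSC II minus MSC IV, the upper neighbours, was −0.99 ± 0.41 (adjusted p = 0.135). MSC I minus MSC III, the lower ones, was −0.85 ± 0.41 (adjusted p = 0.159). MSC III minus MSC IV was −2.15 ± 0.41 (adjusted p = 0.0134) but was not called without MSC III replicate 1 or either MSC IV array (adjusted p = 0.0537 to 0.0794). MSC IV minus MSC V was 1.35 ± 0.41 (adjusted p = 0.0469), and it was not called with every named gene tested (adjusted p = 0.0834), with arrays centred on their medians (0.0599), or without any one array of MSC II, IV or V (0.0601 to 0.156).

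Wnt4 (chr4:137277635-137299501, GRCm38.p6), which acts in kidney and gonad development, had 7.06 and 7.87 in MSC IV. It had 6.39 and 6.25 in MSC I, 6.51 and 5.81 in MSC II, 6.12 and 6.28 in MSC III, and 6.17 and 6.04 in MSC V. The MSC IV arrays were the only 2 above the table's median, so Wnt4 was tested only because of them. MSC IV minus the other four was 1.27 ± 0.24 (SE, 2.41-fold, adjusted p = 0.00655), and with every named gene tested the adjusted p was 0.0133. In that second fit the call was lost without MSC IV replicate 2 (0.86, adjusted p = 0.108). The other four did not separate from each other: their 6 pairwise differences lay between −0.03 and 0.22, with an SE of 0.30 (lowest adjusted p = 0.637).

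The second Wnt4 probe set gave the same order at the top. It read 6.51 and 7.44 in MSC IV and 4.86 to 5.85 over the 8 arrays of the other four. Its difference, MSC IV minus the other four, was 1.64. The pairs of MSC IV with each of the other four were called for the main probe set (adjusted p = 0.0171 to 0.03). With every named gene tested 3 of these 4 were called, and MSC III minus MSC IV was not (adjusted p = 0.0526). In the filtered fit each pair lost its call without at least one array of the preparation set against MSC IV (adjusted p = 0.0571 to 0.131). Without either MSC IV array Wnt4 no longer passed the filter.

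In MSC IV against the other four, 3 ligands (Wnt4, Wnt5a and Wnt10b) were called higher, against 3.29% of all tested genes, Wnt4 having been tested only through MSC IV. Over every named gene the same comparison called 3 of 10 ligands higher, against 1.77% of genes. None of the 4 tested ligands was called lower, against 7.7% of tested genes. In MSC I against the other four, Wnt5a and Wnt10b were called lower, against 5.22% of tested genes (2 of 10 over every named gene, against 2.67%). An order with MSC IV highest and MSC I lowest among genes called over the 5 preparations was shared by 486 of the 10971 tested genes, 4.43%. The mean of the 6 osteoblast markers was likewise highest in MSC IV and lowest in MSC I. Of the 6, 4 were called higher in MSC IV (against 3.29%) and 3 lower in MSC I (against 5.22%). The mean of the adipocyte markers was highest in MSC I. The part of the lineage makeup and of proliferation in the ligand levels was not tested.

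**Figure D2:**
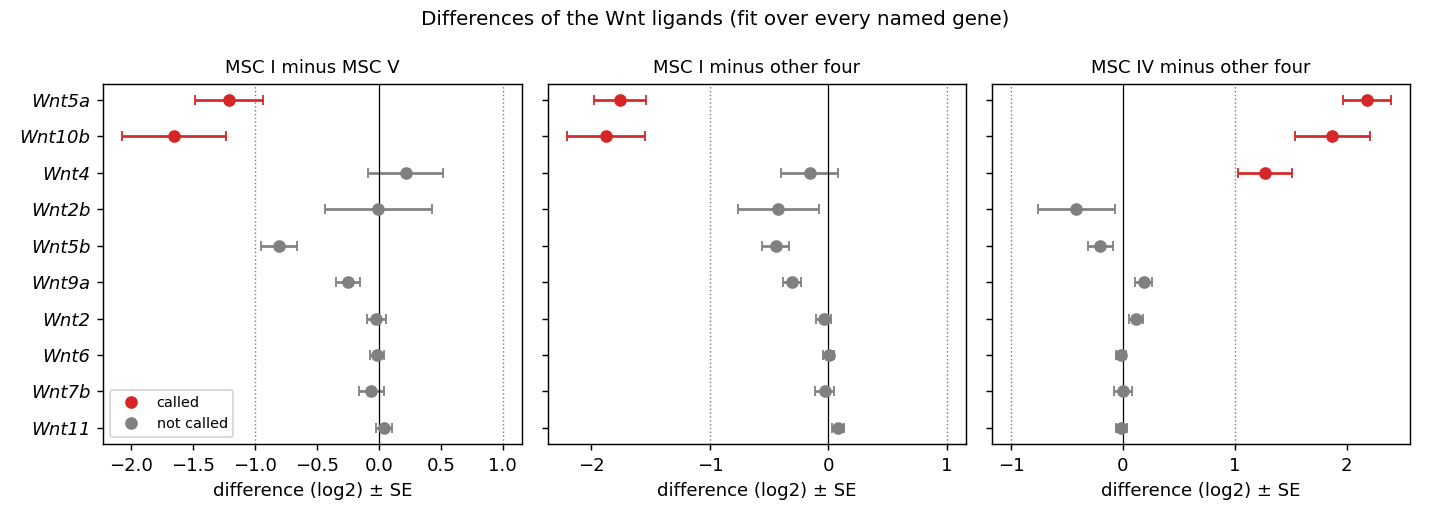
Difference of each of the 10 Wnt ligands (y axis) for MSC I minus MSC V, MSC I minus the other four and MSC IV minus the other four (log2, x axis), from the fit over all 19938 named genes. Points are estimates, bars are SE, dotted lines mark 1 on the log2 scale and red marks called differences: Wnt5a and Wnt10b lie to the left in both MSC I panels, and Wnt5a, Wnt10b and Wnt4 to the right in MSC IV.

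MSC I set directly against MSC V gave 2 called ligands, both lower in MSC I, against 4.43% of all tested genes. Wnt5a had 7.36 and 6.79 in MSC I and 8.25 and 8.32 in MSC V, a difference of −1.21 ± 0.27 (SE, 2.31-fold lower, adjusted p = 0.0173). Wnt10b had 6.01 and 4.88 in MSC I and 7.18 and 7.01 in MSC V, a difference of −1.65 ± 0.41 (SE, 3.13-fold lower, adjusted p = 0.0239). For both genes the arrays of MSC I and MSC V did not overlap. Both calls rested on single arrays. Without MSC I replicate 2 the differences were −0.93 for Wnt5a (adjusted p = 0.0966) and −1.08 for Wnt10b (adjusted p = 0.109). They were also lost without either MSC V array (adjusted p = 0.0615 and 0.0715 for Wnt5a, 0.095 and 0.0716 for Wnt10b).

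Wnt5b (chr6:119432531-119544824, GRCm38.p6), the closest relative of Wnt5a, followed another order. It had 6.95 and 6.72 in MSC V, 6.74 and 6.52 in MSC III, 6.06 and 6.39 in MSC IV, 6.13 and 6.30 in MSC II, and 6.06 and 6.00 in MSC I. Only 3 arrays, both of MSC V and 1 of MSC III, exceeded the table's median. Its means spanned 0.80 (adjusted p = 0.0181), so it passed the p threshold but fell short of the 2-fold minimum and was not called. MSC I minus MSC V was −0.80 ± 0.16 (SE, 1.74-fold lower, adjusted p = 0.0104), and the arrays of the pair did not overlap. MSC V minus the other four was 0.56 ± 0.13 (adjusted p = 0.0305). MSC III minus MSC V was −0.21 ± 0.16 (adjusted p = 0.469), within their spread. For Wnt4, MSC I minus MSC V was 0.22 ± 0.30 (adjusted p = 0.637).

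Wnt2b (chr3:104944805-104961709, GRCm38.p6), a ligand of the β-catenin branch, had 6.21 and 7.62 in MSC II and 4.96 to 5.41 over the 8 arrays of the other four. Both MSC II arrays lay above all others, with an SD of 1.00 between them, and 1 array exceeded the table's median, so the gene did not pass the filter. With every named gene tested, MSC II minus the other four was 1.74 ± 0.34 (SE, 3.33-fold, adjusted p = 0.023), against 1.28% of genes called higher in that comparison. That call did not hold when MSC II replicate 2 (1.03, adjusted p = 0.0852) or MSC III replicate 2 (1.69, adjusted p = 0.0518) was left out. The test over the 5 preparations gave an adjusted p of 0.0564.

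Wnt9a (chr11:59306849-59333552, GRCm38.p6), which takes part in joint and cartilage formation, stayed between 5.41 and 5.95. Its preparation means differed by at most 0.44 (adjusted p = 0.046 with every named gene tested), below the 2-fold minimum, with MSC II and MSC IV at the top and both MSC I arrays below all others. MSC I minus MSC V was −0.25 ± 0.10 (adjusted p = 0.147).

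Wnt2, Wnt6, Wnt7b and Wnt11 were flat and low on their probe sets. Over the 10 arrays Wnt2 lay between 4.76 and 4.97, Wnt6 between 4.81 and 4.90, Wnt7b between 4.94 and 5.17, and Wnt11 between 4.93 and 5.12. Their adjusted p over the 5 preparations was 0.491, 0.954, 0.918 and 0.626 in the fit over every named gene. For MSC I minus MSC V these 4 genes gave differences from −0.06 to 0.04, with SE from 0.06 to 0.10. The 10th percentile of all values in the table was 4.98. No detection call came with the values, so whether these genes were expressed cannot be told from them.

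Of the 4 tested ligands, limma called 0 in MSC II, 0 in MSC III and 0 in MSC V against the other four. At an unadjusted p under 0.05 the numbers were 0 for MSC II, 2 for MSC III (Wnt5b and Wnt10b) and 1 for MSC V (Wnt5b). The background of called genes was 2.45% upward and 2.69% downward for MSC II, 1.31% and 0.957% for MSC III, and 2.11% and 1.44% for MSC V.

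Some ligands are neighbours in the genome. Wnt10b lies 11650 bases from Wnt1 on chromosome 15, Wnt6 lies 6696 bases from Wnt10a on chromosome 1, and Wnt9a lies 16097 bases from Wnt3a on chromosome 11. Wnt1 stayed between 4.76 and 5.00 over the arrays in which Wnt10b spanned 4.88 to 8.45. Wnt10a stayed between 5.20 and 5.56, and Wnt3a between 5.23 and 5.42. The 9 Wnt ligands outside the set of 10 (Wnt1, Wnt3, Wnt3a, Wnt7a, Wnt8a, Wnt8b, Wnt9b, Wnt10a and Wnt16) all stayed at or below 5.56, and none passed the filter. In the fit over every named gene none of them was called, and Wnt16 had the lowest adjusted p, 0.0455, with a span of 0.27.

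The sequence before the start of the 3 ligands that stood out in one preparation each and have a window in RefSeq's promoter table (GRCm38.p6) is shown to compare their base composition. RefSeq windows were matched for 8 of the 10 ligands, all but Wnt5a and Wnt7b. Each line reads 5′ to 3′ on the gene's strand and ends at the base before the annotated gene. Capitals mark GGGCGG or its complement CCGCCC, the GC box bound by Sp factors. Wnt4 is chr4:137277385-137277634 on the plus strand, Wnt2b is chr3:104961710-104961959 on the minus strand, and Wnt10b is chr15:98778207-98778400 on the minus strand, where 194 of the 250 bases lie outside the annotated gene.
Wnt4: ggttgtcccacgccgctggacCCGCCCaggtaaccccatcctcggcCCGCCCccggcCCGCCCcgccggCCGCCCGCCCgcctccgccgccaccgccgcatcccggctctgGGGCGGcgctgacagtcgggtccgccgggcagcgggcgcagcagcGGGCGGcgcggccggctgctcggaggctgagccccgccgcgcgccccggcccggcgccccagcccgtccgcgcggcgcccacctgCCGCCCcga
Wnt2b: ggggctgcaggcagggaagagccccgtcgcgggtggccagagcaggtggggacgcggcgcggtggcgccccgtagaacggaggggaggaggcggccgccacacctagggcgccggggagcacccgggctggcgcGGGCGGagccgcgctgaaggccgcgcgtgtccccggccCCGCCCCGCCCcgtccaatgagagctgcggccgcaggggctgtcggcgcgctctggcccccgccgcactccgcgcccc
Wnt10b: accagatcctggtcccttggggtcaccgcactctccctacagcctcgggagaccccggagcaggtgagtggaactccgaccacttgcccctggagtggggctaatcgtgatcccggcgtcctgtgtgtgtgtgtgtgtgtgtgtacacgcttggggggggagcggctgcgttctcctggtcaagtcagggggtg

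Motifs were counted on both strands in the 250 bases before each start, overlapping matches included. The Wnt4 window held 8 GC boxes, with 85.2% G or C and 44 CpG dinucleotides. The Wnt2b window held 3, with 80.8% G or C and 36 CpG. The Wnt10b window held none, with 66.8% G or C and 14 CpG. Over all windows that RefSeq's table holds, 32851 in number, 32.7% held the motif, the median G or C share was 52.4% and the median CpG number 6. None of the 3 windows held TATAAA, found in 12.4% of all windows, TGTGGT (14.0%), CTTTGAT (3.21%) or TAATTA (4.84%), which are core letters of a TATA box and of Runx, Tcf/Lef and Dlx motifs. The counts describe letters only.

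Among the 10 ligands, Wnt5a and Wnt10b followed each other most closely, with a Pearson r of 0.90 over the 10 arrays. Wnt4 had an r of 0.64 with Wnt5a and 0.56 with Wnt10b. The arrays share their preparations, so these values are descriptions over 5 preparations measured by pairs of arrays. The genes most like each ligand were sought among tested genes outside the 10 ligands, leaving out predicted, pseudogene, clone and Riken names. Those most like Wnt5a by r were Sp7 (0.98), Ly9 (0.97) and Smim20 (0.97). Sp7 encodes the osteoblast transcription factor osterix, and Ly9 a cell surface receptor of the SLAM family. Sp7 averaged 12.09 ± 1.00 in MSC IV and 5.61 ± 1.12 in MSC I (SD, n = 2 each). For Wnt10b they were Clta (0.97), a clathrin light chain, Mmaa (0.96), which acts in cobalamin metabolism, and Mlycd (0.96), which degrades malonyl-CoA. For Wnt4 they were Decr1 (0.97), an enzyme of fatty acid oxidation, Oxct2a (0.97), which has a close paralog that may share its probes, and Sncaip (0.97).

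**Figure D3:**
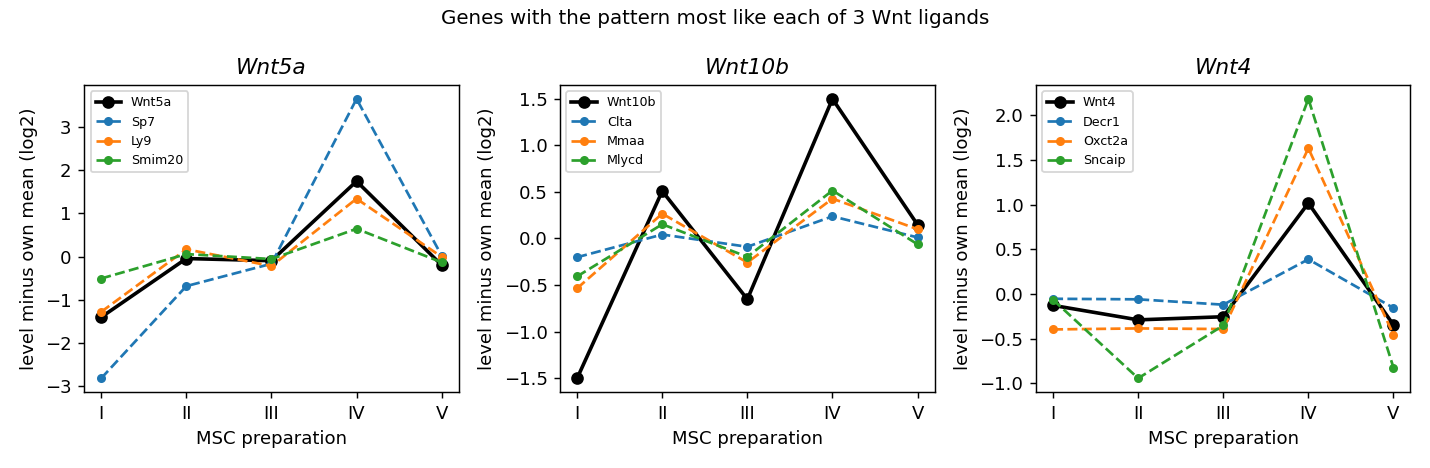
Wnt5a, Wnt10b and Wnt4 (black) and the 3 genes with the highest Pearson r to each (dashed), as the mean of 2 arrays minus the gene's own mean over the 5 preparations (log2, y axis) in MSC I to MSC V (x axis). In each panel the ligand and the 3 genes are highest in MSC IV.

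Of the genes that modify and release the ligands, 5 of 6 passed the filter. Of these 5, 1 (20%), Porcn, was called over the 5 preparations, against 29.1% of all tested genes. Porcn had 11.85 and 11.27 in MSC IV, 8.41 and 8.02 in MSC I, 10.49 and 10.33 in MSC II, 10.04 and 9.95 in MSC III, and 9.49 and 10.70 in MSC V. It shared the ends of the order with Wnt5a and Wnt10b: both MSC IV arrays lay above and both MSC I arrays below all others. MSC IV minus the other four was 1.88 ± 0.29 (adjusted p = 0.00318). MSC I minus the other four was −2.30 ± 0.29 (adjusted p = 0.000908), and MSC I minus MSC V was −1.88 ± 0.37 (adjusted p = 0.0102), lost without MSC I replicate 2 (adjusted p = 0.0644). Wls, the carrier, was not called (11.44 to 12.38 over the arrays, adjusted p = 0.152), nor were Gpc4, Gpc6 and Apcdd1.

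Of 10 Frizzled receptor genes, 8 were tested and 6 called over the 5 preparations, against 29.1% of all tested genes. With every named gene tested 6 of 10 were called, the same genes, against 14.6% of genes. MSC I had 3 higher than the other four, against 7.73% of tested genes, Fzd4 having been tested only through MSC I. Fzd4, which also binds Norrin, had 9.71 and 9.27 in MSC I and 5.12 to 6.78 over the other 8 arrays, a difference of 3.63 ± 0.15. Without its MSC I arrays Fzd4 would not have passed the filter, so no p-value from the filtered fit is given for that difference. Fzd7 exceeded the other four by 1.63 ± 0.14 in MSC I (adjusted p = 0.000139), and Fzd1 by 1.55 ± 0.34 (adjusted p = 0.0096, lost without MSC I replicate 1 at 0.0897). Fzd6 was lower, with 5.95 and 6.56 in MSC I and 8.02 to 8.93 in the other four (−2.24 ± 0.24, adjusted p = 0.000424). In MSC IV, Fzd1, Fzd2 and Fzd4 were lower than in the other four (−1.96 ± 0.34, −1.08 ± 0.19 and −1.72 ± 0.15, adjusted p = 0.00507, 0.00493 and 0.000313) and Fzd5 was higher (1.16 ± 0.28, adjusted p = 0.0184). The calls of Fzd1 and Fzd2 were lost without MSC IV replicate 2 (adjusted p = 0.0639 and 0.0671) and that of Fzd5 without MSC IV replicate 1 (0.70, adjusted p = 0.15). Frizzled genes were thus called in both directions within MSC I and within MSC IV. Of the ligands, Wnt5a and Wnt10b were called lower in MSC I and higher in MSC IV. Wnt4, tested only through MSC IV, was called higher there.

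Among 9 co-receptor and other receptor genes, all tested, 4 were called over the preparations, against 29.1% of all tested genes. Adgra2, which with Reck forms a receptor for Wnt7 ligands in brain vessels of the mouse, had 7.42 and 7.47 in MSC IV and 8.98 to 10.27 in the other four (−2.21 ± 0.12, adjusted p = 4.28e-05). Reck had 10.63 and 10.99 in MSC IV and 8.58 to 9.59 in the other four (1.74 ± 0.19, adjusted p = 0.000787). Ror2, a receptor for Wnt5a, ran from 8.10 to 9.50 and was not called (adjusted p = 0.0567). Ryk and Ptk7 had spans of 0.59 and 0.88, below the 2-fold minimum.

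R-spondins raise the number of Frizzled receptors at the cell surface through Lgr receptors, and Rnf43 removes them. Of 9 such genes 7 were tested and 6 called over the preparations, against 29.1% of all tested genes. With every named gene tested 5 of 9 were called, all of the 6 but Rspo3, against 14.6% of genes. Rspo2 had 8.52 and 6.81 in MSC IV and 9.10 to 12.08 in the other four (−3.24 ± 0.42, adjusted p = 0.00153). Rspo3 had 12.07 and 10.03 in MSC IV and 6.79 to 11.36 in the other four (3.06 ± 0.85, adjusted p = 0.0298), with 7.83 and 11.36 on the arrays of MSC V alone, and the call was lost without either MSC IV array (adjusted p = 0.219 and 0.0612) and without MSC I replicate 1, MSC II replicate 2 or MSC III replicate 2 (0.0506 to 0.056), and with every named gene tested (0.0599). Lgr5 had 5.53 and 5.47 in MSC IV and 7.76 to 9.80 in the other four (−3.21 ± 0.34, adjusted p = 0.000652). Lgr6 stood out in MSC V, with 8.02 and 8.22 there and 5.16 to 6.59 in the other four (2.23 ± 0.18, adjusted p = 0.00191 with every named gene tested), and it passed the filter only through the MSC V arrays. Rnf43 passed the filter through MSC IV alone, with 7.70 and 7.57 there and 5.09 to 5.61 in the other four (2.37 ± 0.08, adjusted p = 5.2e-05 with every named gene tested).

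**Figure D4:**
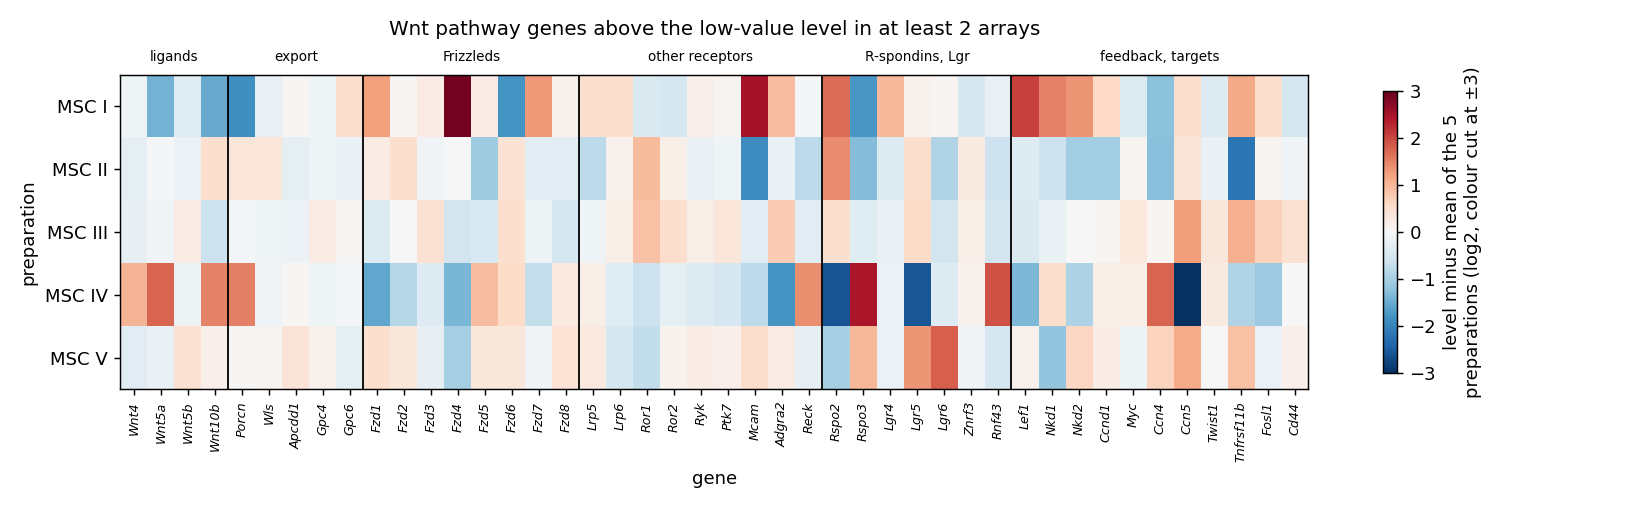
Tested Wnt ligands, export genes, receptors, R-spondin genes and β-catenin feedback and target genes (x axis) in MSC I to MSC V (y axis). Colour is the preparation's mean of 2 arrays minus the gene's mean over the 5 preparations (log2, cut at 3 in either direction); Wnt5a, Wnt10b, Wnt4 and Porcn are above their mean in MSC IV, and Fzd4, Fzd7 and Lef1 in MSC I.

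Of 13 measured feedback and target genes of β-catenin, 11 were tested and 8 called over the preparations, against 29.1% of all tested genes. Lef1, a target and partner of β-catenin, had 8.98 and 8.44 in MSC I and 5.01 to 6.90 in the other four (2.56 ± 0.22, adjusted p = 0.000128). Nkd1, a feedback inhibitor, had 8.41 and 8.81 in MSC I and 5.84 to 8.08 in the other four (1.85 ± 0.23, adjusted p = 0.000892). Ccn4, first described as a Wnt1-induced gene, had 10.50 and 11.57 in MSC IV and 7.38 to 10.05 in the other four (2.19 ± 0.37, adjusted p = 0.00436), lost without MSC IV replicate 2 (1.65, adjusted p = 0.0596). Axin2 did not pass the filter. Of the 11 tested genes, MSC I had 4 called higher and 1 lower than the other four, against 7.73% and 5.22% of all tested genes. MSC IV had 1 called higher, Ccn4, and 5 lower, against 3.29% and 7.7%. Lef1 and Nkd1 were highest in the preparation with the lowest Wnt5a and Wnt10b, and Ccn4 in the one with the highest.

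The secreted antagonists had the largest median span of the Wnt pathway lists. Of 14 measured, 8 were tested and all 8 called over the preparations, against 29.1% of all tested genes. With every named gene tested 7 of 14 were called, against 14.6% of genes. The median span of the 8 was 3.25, against 0.75 for all tested genes. Dkk1, which blocks Lrp5 and Lrp6, had 9.54 and 11.75 in MSC IV and 5.08 to 5.82 in the other four (5.22 ± 0.53, adjusted p = 0.00153 with every named gene tested), and passed the filter through MSC IV alone. Sfrp1, which binds Wnt ligands, had 5.73 and 5.27 in MSC IV and 7.04 to 11.55 in the other four (−4.60 ± 0.31, adjusted p = 0.000103). Frzb had 11.11 and 10.06 in MSC I and 5.82 to 8.52 in the other four (3.43 ± 0.49, adjusted p = 0.00144). MSC IV combined the highest Wnt5a, Wnt10b and Wnt4 with the highest Dkk1 and the lowest Sfrp1 of the 5 preparations.

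Over all 74 tested Wnt pathway genes other than the ligands, 40 (54.1%) were called among the 5 preparations, against 29.1% of all tested genes. Their median span was 1.43, against 0.75. Dkk1, Rnf43, Lgr6 and Fzd4 are among them and passed the filter only through the preparation where they were high. With every named gene tested, 37 of 90 were called, against 14.6% of genes. The counts by direction that follow are from the filtered fit. In MSC I against the other four, 16 were higher and 5 lower, with 7.73% and 5.22% of all tested genes as background. In MSC IV against the other four, 7 were higher and 17 lower, with 3.29% and 7.7% as background. In MSC I against MSC V, 11 were higher and 8 lower, with 6.1% and 4.43% as background. The comparisons share arrays, and the lists were chosen with results of these data known.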

How the data were processed

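The labels and the deposited value table were the only sources. The authors deposited log2 values of 35399 probe sets on 10 arrays, made with RMA and Partek per the submitters' processing notes (versions and roles not given in the sources used here). No detection calls were used. Names came from the platform's probe table, in which 21789 probe sets have 1 symbol, 1621 several and 11989 none. Per gene the single-symbol probe set with the highest mean was kept.

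The log2 values were fitted as deposited in limma 3.58.1 (R 4.3.3; tables with Python 3.11.15), with lmFit and eBayes, one mean per preparation and all 10 arrays. Contrasts were each preparation against the other four averaged, and all 10 pairs, two-sided, with Benjamini-Hochberg adjustment per contrast. The code was tested on simulated data. Every gene of the Wnt and marker lists could be named, plus the 3 genes with the highest Pearson r to each called ligand. Those 3 were sought among tested genes outside the ligands, without predicted, pseudogene, clone or Riken names. Members and lists were chosen with earlier results of these data known. Coordinates are RefSeq's for GRCm38.p6, matched by gene. The number of arrays limits the precision. Alternatives were no filter, a 75th percentile filter, averaged probe sets per gene, median-centred arrays, trend and robust eBayes, a replicate block and each array left out.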

Additional observations from a re-analysis of the deposited data

How the results depend on the processing

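With the filter at the 75th percentile (9.22; 6940 genes tested, so fewer), Wnt5a was the 1 ligand tested and called over the 5 preparations, in MSC I, in MSC IV and in MSC I against MSC V (1 each). All genes called were then 1861 over the preparations, 853, 327, 128, 771 and 223 for MSC I to MSC V against the other four, and 641 for MSC I against MSC V. Without the filter, 1 ligand (Wnt2b) was called in MSC II. With single arrays left out, called ligands numbered 2 to 3 over the preparations, 2 in MSC I, 0 in MSC II, MSC III and MSC V, 1 to 3 in MSC IV, and 0 to 2 in MSC I against MSC V (limma; at an unadjusted p under 0.05 all arrays gave 0 for MSC II, 2 for MSC III and 1 for MSC V). All genes then numbered 2593 to 3300 over the preparations, 1034 to 1492, 295 to 560, 76 to 238, 703 to 1314 and 187 to 383 for MSC I to MSC V, and 846 to 1157 for MSC I against MSC V. Of 1288 values of single genes under an alternative, 1221 kept direction and call, 66 lost the call, 1 gained it and none reversed. Cases where a gene no longer passed the filter, such as Wnt4 without either MSC IV array, are not among these values. The 75th percentile filter gave 46 values, against 82 with averaged probe sets. The 66 lost calls therefore leave out calls that could no longer be made. With a preparation at 1 array, that array is assumed to vary like the others. The replicate number as a block moved Wnt4 over the preparations to an adjusted p of 0.0516 (span 1.36) Wnt10b in MSC IV against MSC V to 0.0806, Wnt4 in MSC III against MSC IV to 0.0612 and Rspo3 in MSC IV to 0.0501, and it changed no other call. Deviations of same-numbered arrays correlated between −0.55 and 0.20, so the numbers were not taken as pairing. Leaving out arrays without the filter, for Wnt2b and Wnt4, was chosen after seeing the data. The causes were not tested. Low signal without detection calls limits Wnt2, Wnt6, Wnt7b and Wnt11, and Wnt10b in MSC I replicate 2.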

Other observations

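In the planar polarity and calcium branch, through which Wnt5a can act, 13 of 16 genes were tested and 4 (30.8%) called over the 5 preparations, close to the 29.1% of all tested genes. Daam2, a formin that links Dishevelled to actin, had 7.36 and 6.25 in MSC IV and 8.12 to 10.06 in the other four (−2.15 ± 0.29, limma adjusted p = 0.00171). Prickle2, a planar polarity gene, had 9.40 and 9.49 in MSC I and 6.70 to 8.60 in the other four (1.58 ± 0.24, adjusted p = 0.0021). Nfatc1, a calcium-regulated transcription factor gene, had 7.22 and 7.11 in MSC I and 7.63 to 9.0 in the other four (−1.17 ± 0.18, adjusted p = 0.00189). Of 13 tested components of the β-catenin pathway itself, 3 (23.1%) were called over the preparations, against 29.1% of all tested genes.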
